A study of Mus musculus with 20 samples.

Results

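The genes described here encode the proteasome and the immunoproteasome, its inducible form, in monocytes and microglia of the mouse brain 3 days after permanent photothrombosis, a model of stroke in which light shone on a circulating dye closes vessels of the cortex. All symbols that start with Psm, a letter from a to g and a number were taken, with pseudogenes left out, which gave 50 members among 16536 genes in one table and 50 among 16140 in the other. The inducible members are Psmb8, Psmb9, Psmb10, Psme1 and Psme2. By symbol the rule also took Psmc3ip, which is named after an interaction with Psmc3 and is not a proteasome subunit, and Psme2b, a copy of Psme2. The table called GFP here comes from Cxcr4-GFP reporter mice and has 8 libraries: the 4 of microglia were GFP-negative and the 4 of monocytes GFP-positive. Each pair of libraries came from the same animal or pool, with 2 mice in pair 1, a pool of 5 in pair 2 and 1 mouse each in pairs 3 and 4. The table called Cre here comes from the Cxcr4CreER line, whose Cre becomes active after tamoxifen, and has 12 libraries, with 3 each of control microglia, control monocytes, conditional knockout (KO) microglia and KO monocytes. Microglia were TdT-negative and monocytes TdT-positive in both genotypes, so population and TdT signal cannot be told apart, and the same holds for population and GFP in the other table. KO microglia are therefore TdT-negative cells of KO animals, and deletion of Cxcr4 in them is not shown by the labels. The sources used here give no tamoxifen timing, sex, age or alleles beyond these names, and the tag BrKo in the titles of the GFP and KO libraries is not explained there. All 6 groups had the lesion, and no group without it was analysed here.

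The proteasome is the protease that degrades ubiquitin-tagged proteins in the cytosol and nucleus. Its 20S core is a barrel of alpha and beta rings, in which Psmb5, Psmb6 and Psmb7 carry the chymotrypsin-like, caspase-like and trypsin-like active sites. The 19S cap, made of Psmc ATPases and Psmd subunits, binds, unfolds and feeds in ubiquitinated substrates. In immune cells and under interferon gamma, Psmb8 replaces Psmb5, Psmb9 replaces Psmb6 and Psmb10 replaces Psmb7 in newly built cores, and Psme1 and Psme2 form the PA28 cap, which opens the core without ubiquitin. The peptides made this way are loaded on MHC class I, and Psmb8 and Psmb9 lie beside the peptide transporter genes Tap1 and Tap2 in the MHC region.

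Promoter letters are shown as examples of motifs whose factors are known to drive proteasome genes, and no contrast between inducible and constitutive members is drawn from them. Interferon regulatory factors bind ISRE motifs, while antioxidant response elements (ARE) are bound by the Nrf factors, which drive constitutive subunits. The windows are RefSeq promoters of GRCm38.p6, 250 bases before to 50 after the start of each gene, found for 42 members (5 inducible and 37 others) and for 27025 genes in all. The motifs searched on both strands were ISRE (GAAA, any 2 bases, GAAA) and ARE (TGACNNNGC). No matches in the members overlapped each other. ISRE was found in 3.99% of all promoters, in 1 of 5 inducible members (Psme1) and in 4 of 37 others. ARE was found in 14% of all, in 0 of 5 inducible members and in 6 of 37 others, among them Psmb5 and Psmb6. A match is a run of letters and not a binding site, and the expression data hold no measure of binding. The matches are in capitals, with up to 10 flanking bases on each side, read 5′ to 3′ along the gene's strand. The first is an inducible member and the last 2 are the constitutive counterparts of Psmb8 and Psmb9.
Psme1, ISRE on the opposite strand, chr14:55578493-55578522, plus strand: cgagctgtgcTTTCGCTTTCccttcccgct
Psmb5, ARE, chr14:54618024-54618052, minus strand: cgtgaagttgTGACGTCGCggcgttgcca
Psmb6, ARE, chr11:70525338-70525366, plus strand: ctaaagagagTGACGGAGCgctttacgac

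Values are normalized counts, that is the reads of a gene after scaling each library by its size factor. The libraries held 0.617 to 14.9 M reads in the GFP table and 9.73 to 56.8 M in the Cre table. The members together took 168 to 29151 and 53323 to 390801 of these reads. In the GFP libraries 22.1 to 48.3% of the reads were of Rn45s, a ribosomal RNA precursor. In the libraries of the Cre table, 0 to 5 of the 50 members were at 0. In the GFP table, 22, 38 and 40 members were at 0 in GFP microglia 3, GFP microglia 4 and GFP monocytes 3, which also had the fewest detected genes (5598, 3489 and 3029, against 10422 to 14498), while 0 to 3 were at 0 in the other 5 libraries. Cxcr4, the deleted gene, stood at 784, 1010 and 536 in KO monocytes 1 to 3 and at 1183, 1332 and 1166 in control monocytes, with 0 to 7.88 in the microglia of the Cre table. It was thus lower in each KO monocyte library than in each control one and was not absent. The 6 microglia markers summed to 159000 to 268900 in Cre microglia and 17910 to 30570 in Cre monocytes, and the 6 monocyte markers to 374 to 2769 and 51160 to 107100. Neutrophil markers (10 genes) also moved with population there, at 18030 to 42490 in control monocytes against 908 to 1924 in control microglia, and 40240 to 74820 in KO monocytes against 1373 to 4030 in KO microglia. Of these, Mmp8, Ly6g, Ltf and Ngp were at 0 in every Cre microglia library and none was at 0 throughout the monocytes. The 7 dendritic cell markers summed to 9698 to 13240 in microglia and 1210 to 3386 in monocytes, but of the 6 tested only Siglech, which is also on the microglia list, was called lower in either genotype, and their median log2 fold was -0.93 in control and 0.02 in KO animals. The 5 astrocyte markers summed to 154 to 625 in monocytes. In microglia their sums lay apart between the genotypes, at 1467 to 1779 in control and 2616 to 2683 in KO animals. Of the 4 tested 0 were called between KO and control microglia. Only Slc1a3 was called lower in monocytes than in microglia, in either genotype. The median log2 fold of the 4 over microglia was 0.68 in control and -2.09 in KO monocytes. The 3 B cell markers summed to 2.00 to 364 in monocytes and 415 to 1017 in microglia, with Cd79b called lower in KO animals only. Oligodendrocyte markers (6 genes) summed to 1014 to 1480 in KO monocytes and 1615 to 2373 in KO microglia and overlapped in control animals. In the GFP table the microglia markers summed to 10530 to 17830 in microglia and 533 to 1870 in monocytes, and the monocyte markers to 0 to 124 and 2140 to 4387. Other sums that lay apart there were those of dendritic cell markers (1326 to 2004 in microglia and 0 to 143 in monocytes, with Siglech and Fscn1 called lower in monocytes), astrocyte markers (173 to 587 and 1.32 to 25.8) and endothelial markers (0 to 70.6 and 87.7 to 222). The part of these cells in the results below was not tested, and in bulk RNA fewer cells of a type and less RNA per cell cannot be told apart.

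Between monocytes and microglia of control animals, 1 member passed the test. Psma7, a subunit of the alpha ring, stood at 6605, 5822 and 6948 in control monocytes and at 1432, 2414 and 3615 in control microglia. All 3 monocyte libraries were above all 3 microglia libraries. The difference was a log2 fold of 1.47 (SE 0.31), with an adjusted p of 0.0151 by limma. Here and below, a gene is called changed at an adjusted p under 0.05 over all tested genes, and log2 folds are of normalized count + 1. Thus 1 of 50 members was called higher, against 3.46% of all 12432 tested genes, and 0 were called lower, against 3.06%. At an unadjusted p under 0.05 there were 4 of 50 members, or 8%, against 19.5% of all genes. The edgeR test on whole reads called 1 member, against 3.84% of all genes, and DESeq2 called 2, against 13.7%. The median log2 fold was 0.22 over the members and -0.24 over all genes, with 32 of 50 positive. Without control monocytes 1 the member median was 0.095, and without control monocytes 2 it was 0.47. Without control microglia 1 it was 0.13, and without control microglia 3 it was 0.39. The groups did not overlap for 4 members that were higher in monocytes (Psma7, Psmb1, Psmb5 and Psmd11), against 9.6% of all genes, and for 1 that was lower (Psme3), against 12.5%.

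The inducible members all had positive folds in control monocytes, and none was called. Psmb8, the inducible chymotrypsin-like subunit, stood at 5887, 5067 and 7451 in control monocytes and at 2392, 6101 and 3914 in control microglia. Control microglia 2 reached into the monocyte range, and the log2 fold was 0.65 (SE 0.45, limma adjusted p = 0.471). Psmb9 stood at 1062, 2410 and 2089 against 833, 1020 and 1203, with control monocytes 1 among the microglia values (log2 fold 0.80, SE 0.44, limma adjusted p = 0.361). Psmb10 stood at 2219, 443 and 2097 against 1067, 549 and 1105. Control monocytes 2 was the lowest of these 6 libraries and the other two monocyte libraries the highest, and the log2 fold was 0.56 (SE 0.62, limma adjusted p = 0.671). Control monocytes 2, which had 10.4 M reads and 10350 detected genes, was the lowest control monocyte library for 35 of 50 members.

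The PA28 subunits were not called in control animals either. Psme1 stood at 9728, 4308 and 8328 in control monocytes and 3810, 3923 and 4997 in control microglia. The monocyte library with 4308 lay inside the microglia range, and the log2 fold was 0.74 (SE 0.33, limma adjusted p = 0.248). Psme2 stood at 9853, 8240 and 11130 in control monocytes and 8437, 6573 and 8407 in control microglia, which overlap (log2 fold 0.32, SE 0.26, limma adjusted p = 0.559). Reads of Psme2 and Psme2b may be split between these near-identical copies, and Psme2b itself gave a log2 fold of 0.04. In GENCODE M21 the gene span of Psmb9 shares 212 bases with that of Tap1 on the opposite strand. Psmb8 and Psmb10 have antisense models there. Since the sources used here do not say whether counting used strand, such reads cannot be told apart.

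The constitutive counterparts of the inducible beta subunits also had positive folds in control monocytes. Psmb5 stood at 1674, 838 and 954 in control monocytes and 330, 771 and 560 in control microglia. The groups did not overlap, and the log2 fold was 1.08 (SE 0.48, limma adjusted p = 0.243). Psmb6 stood at 8797, 5326 and 7277 against 2640, 5576 and 5866, with 1 monocyte library inside the microglia range (log2 fold 0.66, SE 0.35, limma adjusted p = 0.328). Psmb7 stood at 1790, 2306 and 1947 against 1253, 1656 and 2116, which overlap (log2 fold 0.29, SE 0.43, limma adjusted p = 0.768). Among the remaining members the highest log2 folds were those of Psmg2, a chaperone of core assembly (3.15, SE 1.77), Psmb1 (0.86, SE 0.27, limma adjusted p = 0.0837) and Psmd8 (0.76, SE 0.51). The lowest were those of the inhibitor Psmf1 (-3.03, SE 2.43), the nuclear activator Psme3 (-2.57, SE 1.27) and the 19S assembly chaperone Psmd10 (-2.17, SE 1.57). These low folds draw on control monocytes 2, in which Psmf1 was at 0, Psme3 at 6.58 and Psmd10 at 4.39. The high fold of Psmg2 draws on 1 control microglia library in which it was at 0.

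**Figure D1:**
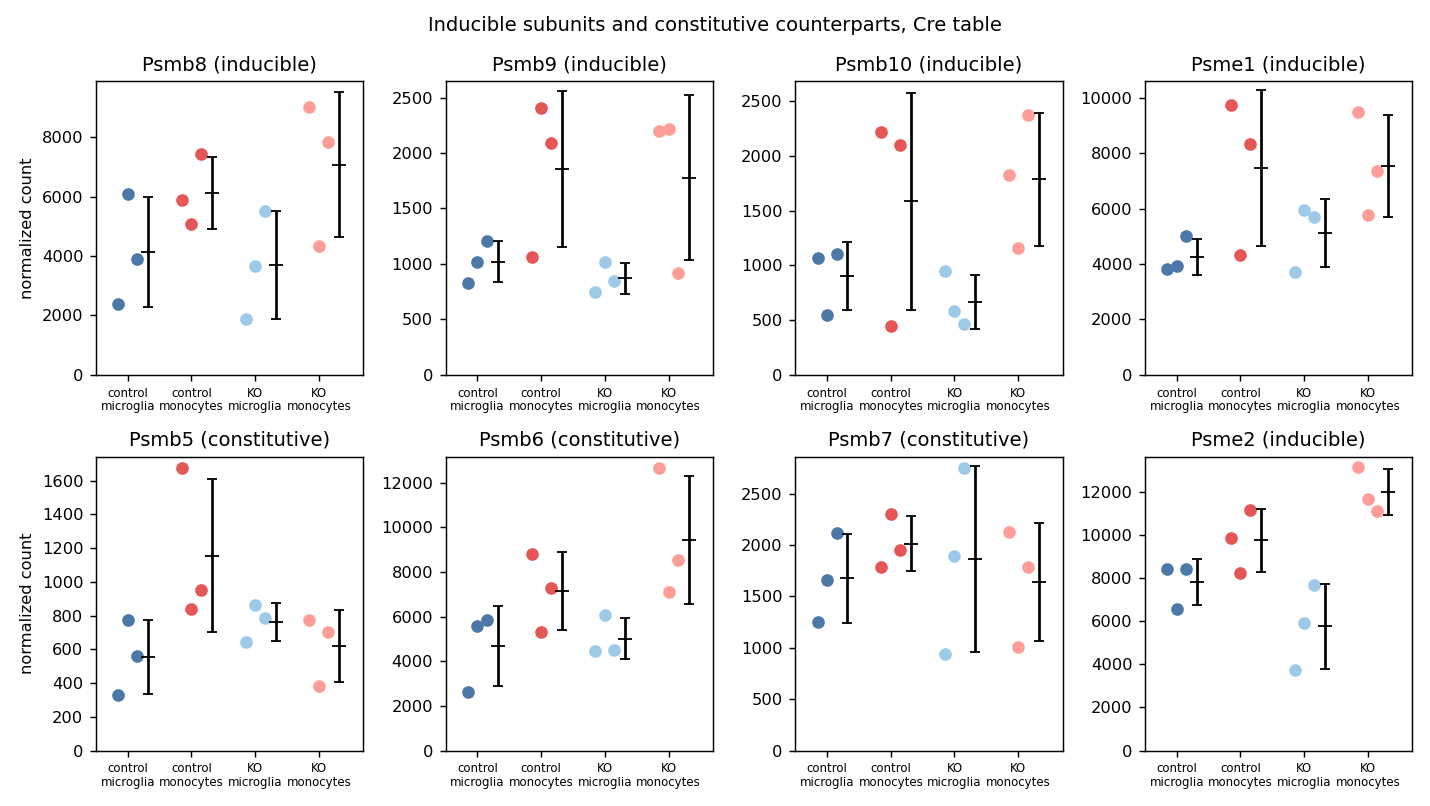
Normalized counts (vertical axes, linear from 0) of the inducible members and of Psmb5, Psmb6 and Psmb7 in the 12 Cre libraries. Each point is 1 library, and the black marks are the mean and SD of 3 libraries. Psme2 in KO monocytes (11090 to 13150) lies above KO microglia (3721 to 7666), as do Psmb10 and Psmb6 in KO animals and Psmb5 in control animals, while the rest overlap between populations.

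In KO animals 4 members were called higher in monocytes than in microglia and 1 lower. Higher were the alpha-ring subunits Psma2 and Psma7, the beta-ring subunit Psmb2 and the PA28 subunit Psme2, and lower was Psma8, the alpha-ring subunit known from testis. The 4 higher members of 50 compare with 3.85% of all tested genes, and the 1 lower with 2.98%. Psme2, the only inducible member called, stood at 13150, 11660 and 11090 in KO monocytes and 3721, 5892 and 7666 in KO microglia. Every KO monocyte library was above every KO microglia library, with a log2 fold of 1.11 (SE 0.26, limma adjusted p = 0.0253). Psma2 stood at 11750, 13590 and 13250 against 5247, 5921 and 6969. These groups did not overlap either, with a log2 fold of 1.10 (SE 0.23, limma adjusted p = 0.0137). In GENCODE M21 the gene spans of Psma2 and AW209491, introns included, share 8943 bases on the same strand. The longest coding transcript of Psma2 has 2911 bases. The exon bases shared were not measured, so whether reads of Psma2 are affected was not tested.

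Psma7 stood at 7945, 6216 and 6009 in KO monocytes and 2778, 2570 and 3130 in KO microglia. The groups lay apart as in control animals, with a log2 fold of 1.24 (SE 0.31, limma adjusted p = 0.0343). Psmb2 stood at 9525, 6784 and 7869 against 3003, 5037 and 3523. The lowest monocyte library was above the highest microglia library, with a log2 fold of 1.08 (SE 0.28, limma adjusted p = 0.0355). Psma8 was at 0 in all 3 KO monocyte libraries and at 81.2, 451 and 62.9 in KO microglia. Against a floor of 3 reads over the KO monocytes its mean was at least 352-fold lower there (limma adjusted p = 0.0233). In control animals Psma8 was at 0 in all monocyte libraries and in control microglia 1 and 3, and at 89.6 in control microglia 2.

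The other inducible members had positive folds in KO monocytes without passing the test. Psmb8 stood at 9023, 4330 and 7855 in KO monocytes and 1896, 3680 and 5533 in KO microglia, so that KO monocytes 2 lay below KO microglia 3 (log2 fold 0.997, SE 0.45, limma adjusted p = 0.247). Psmb9 stood at 2200, 2215 and 921 against 743, 1018 and 851, with KO monocytes 3 inside the microglia range (log2 fold 0.93, SE 0.44, limma adjusted p = 0.276). Psmb10 stood at 1824, 1164 and 2373 against 947, 588 and 468. Its groups did not overlap, and the log2 fold of 1.42 (SE 0.62) was the highest of all 50 members with an adjusted p of 0.228 by limma. Psme1 stood at 9471, 5785 and 7353 against 3726, 5967 and 5701, with KO monocytes 2 inside the microglia range (log2 fold 0.56, SE 0.33, limma adjusted p = 0.409).

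Of the constitutive counterparts none was called in KO animals, and 1 fold was positive. Psmb6 stood at 12660, 7119 and 8542 in KO monocytes and 4452, 6083 and 4516 in KO microglia. Its groups did not overlap, with a log2 fold of 0.88 (SE 0.35, limma adjusted p = 0.175). Psmb5 stood at 776, 380 and 704 in KO monocytes and 643, 865 and 786 in KO microglia, which overlap (log2 fold -0.36, SE 0.48, limma adjusted p = 0.762). Psmb7 stood at 2125, 1011 and 1785 against 940, 1892 and 2752, which overlap (log2 fold -0.12, SE 0.43, limma adjusted p = 0.931).

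By role, the KO population folds were positive in all 7 alpha-ring subunits (log2 0.42 to 1.24, 2 called), in 5 of 7 constitutive beta-ring subunits (-0.36 to 1.08, 1 called), in all 5 inducible members (0.56 to 1.42, 1 called) and in all 6 ATPases of the 19S cap (0.04 to 0.99, 0 called). In control animals they were positive in 6 of 7, 7 of 7, 5 of 5 and 3 of 6 of these, with 1 call, in the alpha ring. The 11 non-ATPase subunits of the cap gave 7 positive folds in either genotype and 0 calls by limma. The lowest KO folds among the remaining members were those of Psmf1 (-3.57, SE 2.43), Psmc3ip (-2.76, SE 2.96) and the 19S assembly chaperone Psmd5 (-2.18, SE 1.17). The highest were those of Psmd9, another 19S assembly chaperone (1.17, SE 1.53), the beta-ring subunit Psmb3 (1.01, SE 0.35, limma adjusted p = 0.124) and the cap subunit Psmd8 (0.998, SE 0.51). Psmb11, the beta subunit known from the thymic cortex, stood at 54.3 to 121.5 in the 12 Cre libraries, with log2 folds of 0.02 in control and 0.29 in KO animals. Psme4, which forms a cap of its own, gave -0.20 (SE 0.52) and 0.18 (SE 0.52). Over all 50 members the median log2 fold was 0.53, against -0.25 over all genes, with 36 positive. An unadjusted p under 0.05 was found for 10 members, or 20%, against 19.3% of all genes. Groups did not overlap for 17 members that were higher in KO monocytes, against 12.7% of all genes, and for 2 that were lower (Psma8 and Psmf1), against 14.8%. The normalized counts of all members summed to 146600 to 170600 in KO monocytes and 83130 to 108000 in KO microglia, which lie apart, and to 117000 to 150600 and 88520 to 125100 in control animals, which overlap.

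The 4 higher calls depended on single libraries and on the scaling. Without KO microglia 1 or without KO monocytes 3, 0 of the 50 members were called by limma, and 1 was called without KO monocytes 1. There were 2 calls without KO microglia 2 or KO monocytes 2 and 3 without KO microglia 3. With CPM scaling in place of the deposited scaling, 0 were called higher and 1 lower, and with upper quartile scaling 2 higher and 1 lower. The edgeR test called 4 higher and 0 lower, against 4.2% of all genes in either direction, and DESeq2 5 higher and 1 lower, against 13.1%. Neutrophil markers, given above, were also higher in KO monocytes than in KO microglia, and their part in these calls was not tested.

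**Figure D2:**
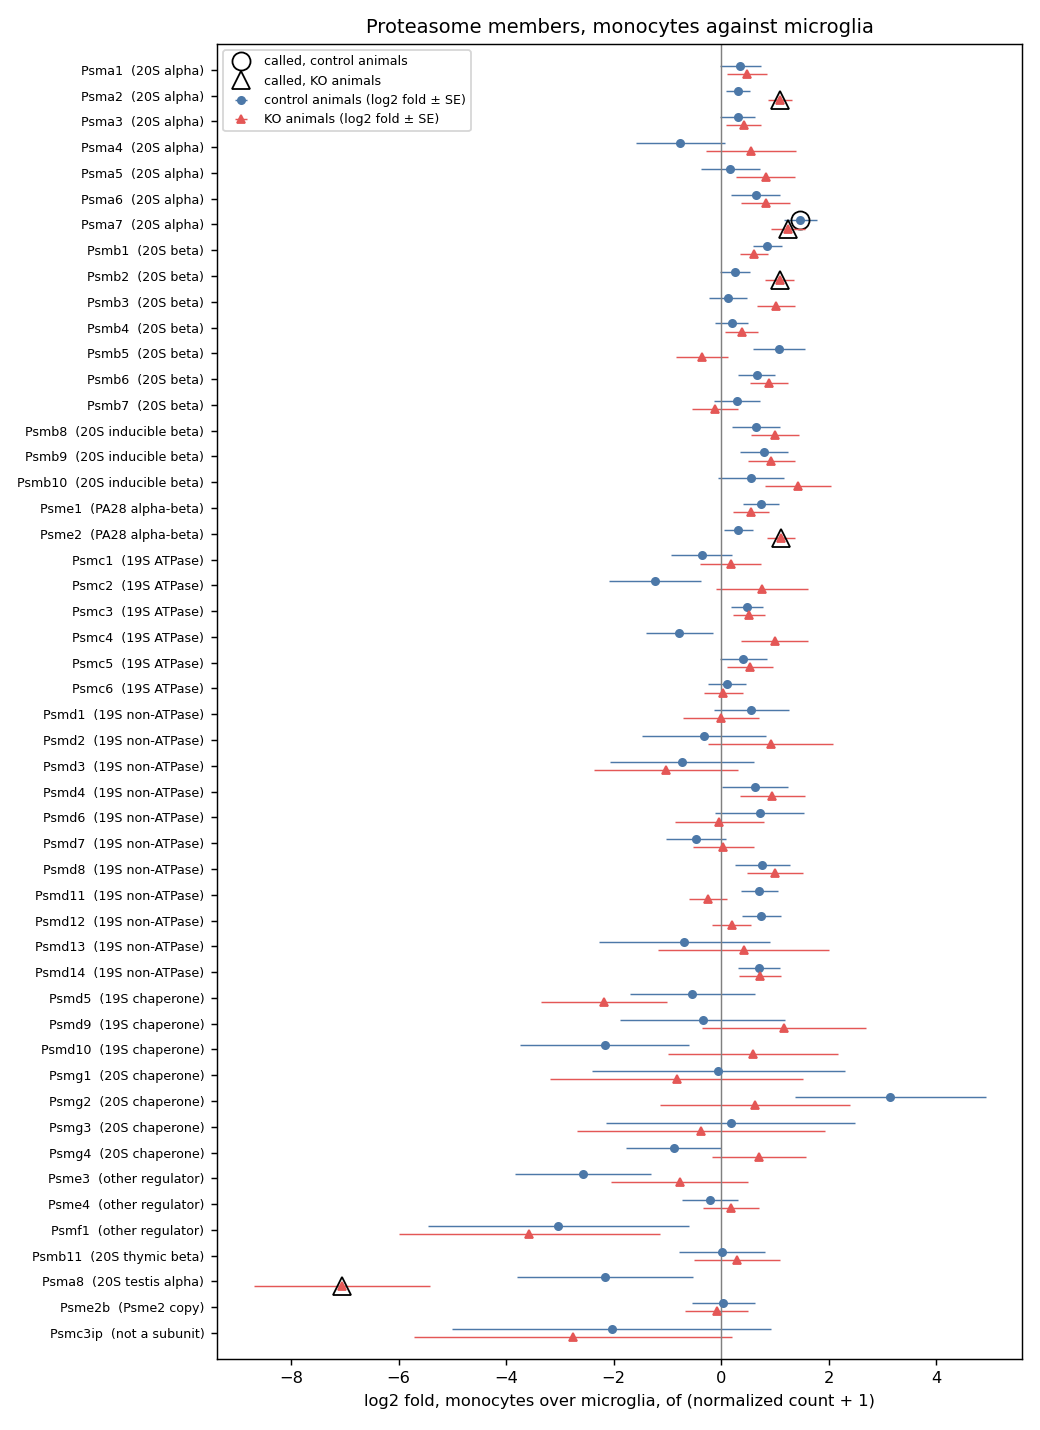
Log2 fold (horizontal axis) of monocytes over microglia for all 50 members, ordered by role, in control animals (blue circles) and KO animals (red triangles). Bars are the SE, and open black symbols mark called members, which are Psma7 in control animals and Psma2, Psma7, Psmb2, Psme2 and Psma8 in KO animals. Wide bars belong to members that were near 0 in single libraries, such as Psmf1 and the Psmg chaperones, and the point of Psma8 in KO animals depends on the 1 added to each value.

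Within a library, the ratio of an inducible subunit to the one it replaces is free of the scaling. The ratio of Psmb8 to Psmb5 was 11.6, 11.4 and 11.2 in KO monocytes and 2.95, 4.26 and 7.04 in KO microglia. It was 3.52, 6.04 and 7.81 in control monocytes and 7.24, 7.91 and 6.995 in control microglia. KO monocytes thus had the 3 highest ratios of the Cre table, and no test was made because the ratio was examined after its values were seen. From control to KO monocytes the mean of Psmb5 went from 1155 to 620 and that of Psmb8 from 6135 to 7069. Against control monocytes the higher ratio thus went more with lower Psmb5 than with higher Psmb8, and neither gene was called. The ratio of Psmb9 to Psmb6 was 0.108 to 0.311 in KO monocytes, 0.167 to 0.188 in KO microglia, 0.121 to 0.452 in control monocytes and 0.183 to 0.315 in control microglia. The ratio of Psmb10 to Psmb7 was 0.858 to 1.33 in KO monocytes, 0.17 to 1.01 in KO microglia, 0.192 to 1.24 in control monocytes and 0.332 to 0.851 in control microglia. The Psmb9 ratio overlapped between all groups, and the Psmb10 ratio between all but KO monocytes and control microglia.

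Levels of different genes were compared per kilobase of the longest coding transcript in GENCODE M21, in the Cre table only. In control monocytes the order of mean normalized counts per kilobase was Psme2 (10130 ± 1508, SD, n = 3), Psmb6 (8939 ± 2180), Psme1 (6704 ± 2530), Psmb8 (3768 ± 744), Psmb7 (1737 ± 228), Psmb9 (1371 ± 521), Psmb5 (1285 ± 504) and Psmb10 (1210 ± 757). Psme2, Psmb6 and Psme1 overlapped within their SD, as did Psmb7, Psmb9, Psmb5 and Psmb10, and Psmb8 overlapped Psme1. In control microglia the means were 8114 ± 1110 for Psme2, 5882 ± 2237 for Psmb6, 3816 ± 589 for Psme1, 2540 ± 1145 for Psmb8, 1444 ± 372 for Psmb7, 753 ± 137 for Psmb9, 692 ± 237 for Psmb10 and 616 ± 245 for Psmb5. Per kilobase, Psmb8 was thus above its counterpart Psmb5, and Psmb9 below its counterpart Psmb6, in both populations. In KO monocytes Psme2 (12440 ± 1104) and Psmb6 (11830 ± 3609) were again highest, and Psmb5 (690 ± 235) was lowest. In KO microglia Psmb6 (6287 ± 1158) and Psme2 (5987 ± 2054) were highest and Psmb10 (509 ± 190) was lowest.

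No member was called between KO and control monocytes or between KO and control microglia. In monocytes 0 of 50 were called by limma, edgeR or DESeq2, against 0.0402%, 0% and 2.87% of all genes by these tools, and 0 had an unadjusted p under 0.05 by limma, against 6.08% of all genes. In microglia 0 of 50 were called by the same tools, against 0.0322%, 0% and 0.924% of all genes, and 1 had an unadjusted p under 0.05 by limma, against 3.53% of all genes. This member was Psma8, with the values given above (log2 fold 4.89, SE 1.64, limma adjusted p = 1). The genotype-by-population term, which tests whether the KO difference differs between the populations, called 0 of 50 members by limma, edgeR or DESeq2, against 0%, 0% and 2.29% of all genes by these tools. The smallest unadjusted p of that term was 0.0323, for Psma2 (log2 0.78, SE 0.32, limma adjusted p = 0.999), and no other member was under 0.05, against 4.75% of all genes. The calls in KO animals that were not made in control animals were therefore not shown to differ between the genotypes.

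The intervals of these folds were wide. In monocytes, KO over control, the fold of Psmb8 was 1.11 (95% interval 0.566 to 2.19), that of Psmb9 0.944 (0.482 to 1.84), that of Psmb10 1.35 (0.529 to 3.43), that of Psme1 1.05 (0.634 to 1.74) and that of Psme2 1.23 (0.83 to 1.84). In microglia, KO over control, the fold of Psmb8 was 0.878 (0.446 to 1.73), that of Psmb9 0.858 (0.438 to 1.68), that of Psmb10 0.738 (0.29 to 1.88), that of Psme1 1.19 (0.721 to 1.97) and that of Psme2 0.712 (0.478 to 1.06). All these intervals include 1. The constitutive counterparts gave folds of 0.538 (0.261 to 1.11) for Psmb5, 1.31 (0.777 to 2.22) for Psmb6 and 0.782 (0.405 to 1.51) for Psmb7 in monocytes. In microglia they gave 1.45 (0.704 to 2.99), 1.12 (0.665 to 1.9) and 1.04 (0.537 to 2).

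In monocytes the libraries of the genotypes did not overlap for Psmb2, Psmd8 and Psmd10, which were higher in KO, against 4.67% of all genes, and for Psmb5, which was lower in KO, against 4.15%. Psmb5 stood at 776, 380 and 704 in KO monocytes and 1674, 838 and 954 in control monocytes. Psmd10, which had the highest log2 fold of the members in this comparison (3.10, SE 1.57, limma adjusted p = 0.847), stood at 1700, 1292 and 2258 against 1134, 4.39 and 1276. Its fold draws on control monocytes 2, where 2 reads were counted. Psmg1 (1.80, SE 2.35) and Psme3 (1.65, SE 1.27) were next, and of the members other than Psmb5 (-0.895, SE 0.48) Psmc3ip (-2.93, SE 2.96), Psmd5 (-1.20, SE 1.17) and Psmf1 (-0.55, SE 2.43) were lowest. In microglia no member was higher in KO without overlap, against 5.24% of all genes, and Psmb3 and Psmc4, an ATPase of the cap, were lower, against 4.22%. The highest log2 folds there, Psma8 apart, were those of the core chaperones Psmg2 (3.20, SE 1.77), Psmg1 (2.57, SE 2.35) and Psmg3 (1.84, SE 2.31), and the lowest those of Psmc3ip (-2.21, SE 2.96), Psmc4 (-0.98, SE 0.62) and Psmd13 (-0.89, SE 1.59). In control microglia, Psmg2 and Psmg3 were each at 0 in 1 library, and Psmg1 was at 1.71 in its lowest. The high folds of these chaperones draw on those values. For the term of the difference, Psmd10 (2.76, SE 2.23), Psmc2 (1.98, SE 1.21) and Psme3 (1.80, SE 1.79) were highest, and Psma8 was lowest (-4.89, SE 2.31), a value that depends on the 1 added to each count because it was at 0 in all monocyte libraries. Of the members other than Psma8 and Psmb5 (-1.43, SE 0.68), Psmg2 (-2.52, SE 2.51), Psmd5 (-1.64, SE 1.65) and Psmd11 (-0.95, SE 0.49) were lowest.

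**Figure D3:**
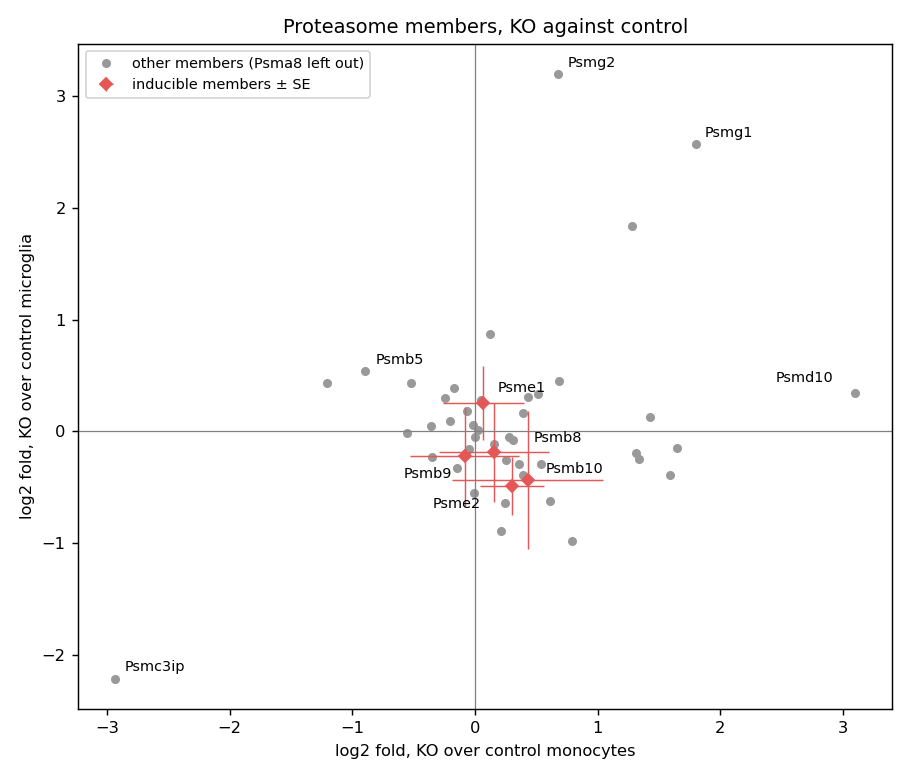
Log2 fold of KO over control in monocytes (horizontal axis) against that in microglia (vertical axis), 1 point a member, with Psma8 left out because it was at 0 in all monocyte libraries. Red diamonds with SE bars are the inducible members, which lie within 0.5 of 0 on both axes, and no member was called in either comparison.

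In the GFP table no member was called between monocytes and microglia while all 8 libraries were used. Of the 50 members 41 passed the filter and 0 were called by limma, edgeR or DESeq2, against 0.908% of all 7706 tested genes by limma, 1.3% by edgeR and 3.42% by DESeq2. An unadjusted p under 0.05 by limma was found for 0 members, against 7.53% of all genes. The median log2 fold was 1.14 over these 41 members and 0.51 over all genes, with 39 positive. Leaving out 1 library gave member medians from 0.44 (without GFP microglia 4) to 2.43 (without GFP monocytes 3), and all-gene medians from -0.086 to 1.43 without the same libraries. The SE of single members was 1.29 to 2.197, since many of them were at 0 in the 3 libraries with few detected genes. Psmb10 stood at 68.9, 79.9, 280.2 and 53.3 in GFP monocytes 1 to 4 and at 12.9, 31.0, 0 and 14.8 in GFP microglia. All monocyte libraries were above all microglia libraries (log2 fold 3.40, SE 1.78, limma adjusted p = 0.766). Psmb2 was the other member without overlap (1.91, SE 1.37), and the 2 members of 41 compare with 5.22% of all genes.

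The remaining inducible members overlapped between the GFP populations. Psmb8 stood at 74.6, 140.6, 200.9 and 82.4 in GFP monocytes and 15.5, 40.9, 127.4 and 62.2 in GFP microglia, with GFP microglia 3 inside the monocyte range (log2 fold 1.25, SE 1.29, limma adjusted p = 0.999). Psmb9 stood at 35.7, 26.7, 0 and 7.27 against 15.5, 14.2, 0 and 0, where 15.5 rests on 6 reads and 7.27 on 3 (log2 fold 1.27, SE 1.70, limma adjusted p = 0.999). Psme1 stood at 70.8, 118.5, 44.9 and 82.4 against 41.3, 57.2, 218.5 and 8.89, with GFP microglia 3 the highest of the 8 libraries (log2 fold 0.65, SE 1.42, limma adjusted p = 0.999). The fold of Psme1 was negative with edgeR (-0.19) and DESeq2 (-0.0421). Psme2 stood at 22.6, 5.72, 0 and 9.70 against 15.5, 4.30, 0 and 0 and did not pass the filter. Its near-identical copy Psme2b held more reads, at 677 in GFP monocytes and 193 in GFP microglia, against 95 and 16 for Psme2. Psme2b gave a log2 fold of 0.86 (SE 2.13, limma adjusted p = 0.999). Since reads may be split between the copies, a low level of Psme2 and assignment of its reads to Psme2b cannot be told apart.

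Psmb5 stood at 19.4, 11.97, 0 and 14.5 in GFP monocytes and at 0, 11.2, 0 and 0 in GFP microglia (log2 fold 2.10, SE 1.36). Psmb6 stood at 58.3, 14.05, 0 and 41.2 against 33.6, 29.7, 1.25 and 0 (0.99, SE 2.00), and Psmb7 at 23.8, 58.6, 159.9 and 19.4 against 28.4, 39.6, 0 and 0 (3.00, SE 2.03). All 3 constitutive counterparts overlapped between the populations, and they were at 0, or at 1 read, in GFP microglia 3 and 4. Of the subunits called in KO animals, Psma7 stood at 65.2, 100.6, 0 and 67.9 against 46.5, 41.3, 47.4 and 133.4 (log2 fold -1.21, SE 1.73) and Psma2 at 73.9, 68.5, 0 and 43.6 against 18.1, 31.8, 32.5 and 0 (0.87, SE 2.10). Psmb2 stood at 81.5, 77.5, 626.5 and 65.4 against 64.6, 40.9, 30.0 and 14.8. Psma8 was at 0, 0, 0 and 7.27 against 5.17, 6.89, 0 and 0, with at most 16 reads in a library, and was not tested. Among the remaining members Psmc6 (2.94, SE 2.05), Psmc3 (2.66, SE 1.91) and Psmb3 (2.40, SE 1.98) had the highest log2 folds, and Psma5 (-0.76, SE 2.03), Psmd5 (0.06, SE 2.03) and Psma4 (0.22, SE 2.09) the lowest.

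**Figure D4:**
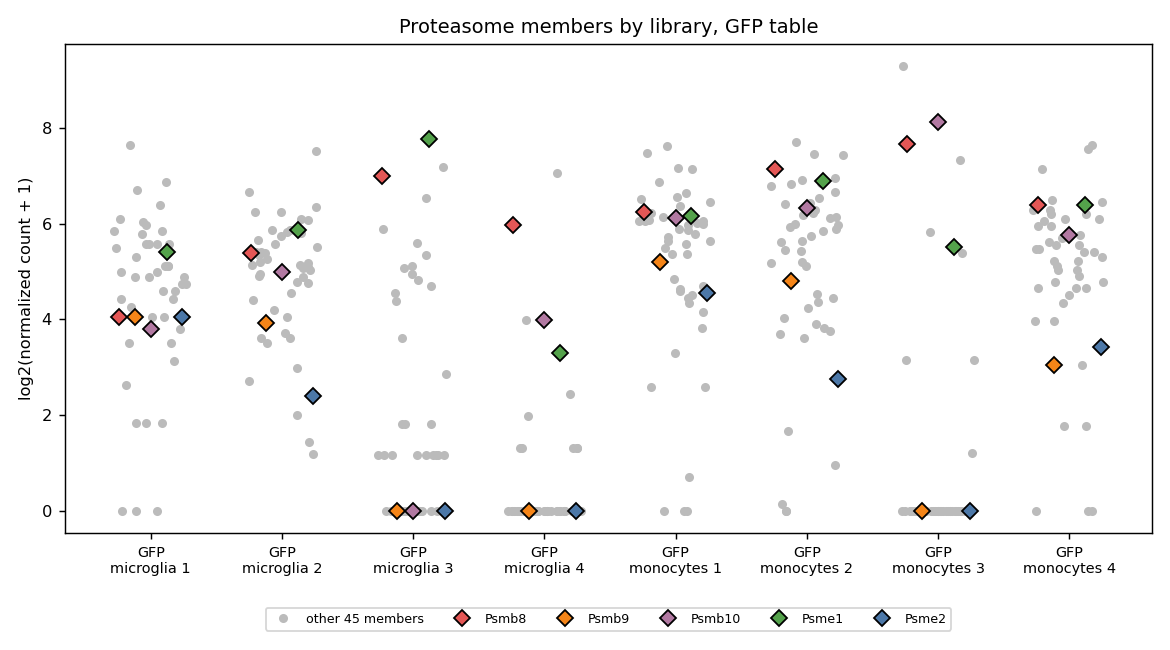
Log2(normalized count + 1) of the 50 members (vertical axis) in each of the 8 GFP libraries. Coloured diamonds are the inducible members and grey points the other 45, and points on the 0 line had no read. GFP microglia 3, GFP microglia 4 and GFP monocytes 3 have 22, 38 and 40 members at 0, and Psmb8 has reads in all 8 libraries.

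Without the 3 libraries with few detected genes, 2 GFP microglia and 3 GFP monocyte libraries remained and 46 members were tested. Here 3 members were called higher in monocytes by limma and 0 lower, against 7.88% of all 9669 tested genes called higher. They were Psmd8 (log2 fold 1.20, SE 0.25, adjusted p = 0.0131), Psmb3 (1.86, SE 0.47, adjusted p = 0.0309) and Psmb8 (1.87, SE 0.51, adjusted p = 0.0398). Psmb8 then stood at 74.6, 140.6 and 82.4 in monocytes and 15.5 and 40.9 in microglia, which do not overlap. Psmd8, a lid subunit of the 19S cap, stood at 177.9, 171.4 and 198.7 against 82.7 and 75.3, and Psmb3 at 57.7, 69.3 and 50.9 against 15.5 and 15.5. In GFP microglia 1 a read equals 2.58 normalized counts, so the 15.5 of Psmb8 and of Psmb3 in that library rests on few reads. Psmb10 gave a log2 fold of 1.68 (SE 0.51) with an adjusted p of 0.0604 by limma, and Psme1 one of 0.85 (SE 0.37) with 0.17. Groups did not overlap for 19 members that were higher in monocytes, against 21.3% of all genes, and for 0 that were lower, against 26.6%. The median log2 fold was 0.44 over the members and -0.15 over all genes, and 36 of 46 were positive. The sum of the 10 neutrophil markers overlapped between the GFP populations, at 418 to 1762 in monocytes and 892 to 1460 in microglia over all 8 libraries. Of these genes, Retnlg, Ly6g, Camp and Ltf were at 0 in every GFP microglia library. None was at 0 throughout the GFP monocytes, and only 1 of the 10 passed the filter and was tested. The sums of dendritic cell, astrocyte and endothelial markers given above lay apart. The part of all these cells in the calls was not tested.

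Other genes of the pathway were read from lists of proteasome partners (23 genes), the MHC class I peptide path (12) and interferon signalling (13). The partners include the ubiquitin receptor Adrm1, the assembly factor Pomp and the transcription factor Nfe2l1. The interferon list holds genes of the interferon gamma path and also Ifnar1, Ifnar2, Stat2 and Irf9 of the type I path. Of all tested genes, 3.46% were called higher in control monocytes than in control microglia and 3.06% lower, and 3.85% and 2.98% in KO animals. In either direction 0.908% were called in the GFP table, 0.0402% between KO and control monocytes and 0.0322% between KO and control microglia. Of the partners 0 were called in control animals, in the GFP table or between genotypes, and 1 of 23 in KO monocytes over KO microglia. That gene was Sem1, a small subunit of the 19S lid, at a log2 fold of 1.817 (SE 0.32, limma adjusted p = 0.00504). In control animals Sem1 gave 1.11 (SE 0.32, limma adjusted p = 0.061). Of the MHC class I path, 2 of 12 were called higher in control monocytes over control microglia, namely Nlrc5, a transactivator of MHC class I genes (1.73, SE 0.33), and H2-D1, a class I heavy chain (1.18, SE 0.31). The peptide trimmer Erap1 was called lower there (-2.43, SE 0.54). In KO animals 1 of 12 was called higher, again Nlrc5 (1.31, SE 0.33), and in the GFP table, 1 of 12, B2m, the light chain of class I (1.12, SE 0.26). H2-D1 gave 1.04 (SE 0.31, limma adjusted p = 0.0751) in KO animals. Of interferon gamma signalling, the receptor-associated kinase Jak2 was called higher in monocytes of control (1.95, SE 0.45) and KO animals (1.68, SE 0.45), and 0 of the 12 tested in the GFP table. No gene of the 3 lists was called between KO and control in either population, or for the genotype-by-population term, by limma.

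Over the 12 Cre libraries, the genes whose log2 level ran most like the mean of the standardised Psmb8, Psmb9 and Psmb10 were Fcer1g (Pearson r = 0.966), Irf7 (0.95), Tspo (0.947), Slfn5 (0.943) and Olfm1 (0.942). These are the top 5 of all tested genes with a mean of 50 or more, so the coefficients are a description of the ranking and carry no p. The libraries share 2 populations and 4 groups, which enter each coefficient. Over the same libraries Psmb8 correlated with Psmb9 at r = 0.484 and with Psmb10 at 0.348, and Psmb9 with Psmb10 at 0.133. The mean of these subunits therefore does not stand for a closely shared profile. A gene that runs like the mean need not run like each subunit.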

How the data were processed

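The authors deposited a signal, normalized counts, made with DESeq2 per the submitters' processing notes. Those notes name CASAVA 1.82 for the GFP table and bcl2fastq 2.20 and kallisto for the Cre table. Per the labels' protocols, RNA was extracted with Qiagen miRNeasy, and libraries were made with Nugen Ovation SoLo from total RNA (GFP) and with SMART-Seq2 from polyA RNA (Cre). For the genome build, annotation and GFP aligner the entry is "not given in the sources used here". Each table was normalized on its own, so levels were compared only within a table. Dividing by the smallest value of each library turned 100% of the values above 0 into numbers within 0.01 of a whole one, which gave whole reads for the edgeR and DESeq2 alternatives. A read equals 0.104 to 2.58 normalized counts in GFP libraries and 0.375 to 2.19 in Cre libraries. Floors cover counting error only and make no allowance for PCR copies.

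Genes with 10 or more in at least 4 (GFP) or 3 (Cre) libraries were tested on log2(value + 1) with limma 3.58.1 (trend, two-sided) under R 4.3.3, with Benjamini-Hochberg adjustment over all tested genes. The Cre table was fitted with 4 groups in 1 model. The labels name separate animals or pools within each group. The scripts were tested on simulated data. Altered gene names (649) in the Cre table were restored.

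The members, lists and rules were chosen with earlier results of these data known. Values per library are given for the inducible members, Psmb5, Psmb6, Psmb7 and every called member, and of the others the 3 highest and 3 lowest folds per comparison are named. Psmb1, Psmd11, Psmb3, Psmc4 and Psmd8 where they are named for non-overlap or in the smaller GFP set, and the ratios of subunits, were chosen after their values were seen. A further promoter motif was searched and is not reported here. Titles tie the GFP libraries of 1 number to the same animal or pool, and tie 2 control and 2 KO animals to a library of each population. Deviations of paired libraries from their group means correlated at -0.113 to 0.238 (GFP) and -0.0555 to 0.00955 (Cre). The alternatives comprised no filter, a mean of 50 or more, a pseudocount of 10, and CPM, TMM and upper quartile scaling. In the GFP table CPM and TMM scaling left Rn45s out of the library size. Further alternatives were edgeR 4.0.16 (quasi-likelihood), DESeq2 1.42.0, the animal as replicate block and each library left out. The last was the GFP table without 3 libraries (10 or more in at least 2).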

Additional observations from a re-analysis of the deposited data

Results flagged for a closer look

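5 values stood far from the rest of their group of 4 GFP libraries, by the gap to the nearest library over the whole range. In all, 24 groups were checked, and libraries with few detected genes hold 3 of the values. How often chance gives such a gap was not tested, since many of these counts were at 0. Where the other libraries of a group are all at 0, as for Psmb5 and Psma8 below, the gap is the whole range by construction. Psmb10 in GFP monocytes 3 was at 280.2, against 53.3 to 79.9 in the other monocyte libraries. Psmb2 in the same library was at 626.5, against 65.4 to 81.5. Psma7 in GFP microglia 4 was at 133.4, against 41.3 to 47.4 in the other microglia libraries. Psmb5 in GFP microglia 2 was at 11.2 while the other microglia libraries were at 0. Psma8 in GFP monocytes 4 was at 7.27 while the other monocyte libraries were at 0.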

How the results depend on the processing

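The count of called members stayed at 0 between KO and control in either population, and for the genotype-by-population term, under all alternatives run. Over GFP monocytes against microglia it was 0 under all alternatives except without the 3 libraries with few detected genes, where it was 3. In control animals it was 1 in all but DESeq2 (2) and ranged from 1 to 2 when single libraries were left out. In KO animals it was 5, with 4 by edgeR, 6 by DESeq2, 1 under CPM scaling, 3 under upper quartile scaling, and 0 to 5 when single libraries were left out. With the animal or pool as replicate block it was 0 (GFP), 1 (control) and 5 (KO), with the same members called, so the block changed no call. CPM scaling moved the all-gene median log2 fold from -0.24 to -0.40 in control and from -0.25 to -0.49 in KO animals, and that of the members from 0.22 to 0.084 and from 0.53 to 0.27. Of 606 values of the 67 log2 folds under alternatives other than single libraries, 600 kept their direction. The reversals were Psme1 in GFP (edgeR -0.19, DESeq2 -0.0421), Psmb7 (-0.15) and Psma7 (0.79) in GFP without the 3 libraries, and Psmb9 in KO over control monocytes (TMM 0.0039, edgeR 0.011). The cause was not tested. Leaving out single libraries turned 18 of the folds, none of them called. In GFP the ranges were -0.33 to 2.35 (Psma2), -1.86 to 0.36 (Psma7) and -0.11 to 1.38 (Psme1). In KO monocytes over KO microglia Psmb7 ranged from -0.54 to 0.23. In KO over control monocytes they were -0.055 to 0.47 (Psmb8), -0.44 to 0.34 (Psmb9), -0.33 to 0.83 (Psmb10), -0.29 to 0.30 (Psme1) and -0.076 to 0.13 (Psma7). In KO over control microglia they were -0.54 to 0.23 (Psmb8), -0.20 to 0.37 (Psmb6), -0.30 to 0.48 (Psmb7) and -0.069 to 0.60 (Psma7). For the genotype-by-population term they were -0.073 to 0.70 (Psmb8), -0.22 to 0.56 (Psmb9), -0.54 to 0.048 (Psme1), -0.0086 to 0.60 (Psmb6) and -0.55 to 0.12 (Psma7). Among the members 9 did not pass the filter in GFP. The libraries with the fewest reads there (0.617 and 0.648 M) had 47 members detected, while the 3 with few detected genes had 10 to 28 at 0.851 to 1.11 M reads. The latter are from pairs 3 and 4 with 1 mouse each, as is the library at 0.648 M reads. The cause of the loss of members was not tested.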
